A study of Homo sapiens with 4 samples.

Results

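The SOX, T-box, PAX, sine oculis homeobox (SIX2 to SIX6) and GATA families of transcription factors were examined in K562 cells with and without the JAZF1-SUZ12 fusion. The members were the rows of the count table whose symbol is one of 50 listed genes, and all 50 were found among 35606 rows. They comprise 18 SOX, 14 T-box, 9 PAX, 5 sine oculis and 4 GATA genes. K562 cells are an established leukaemia line whose cells make globins. JAZF1-SUZ12, the chimeric protein of low-grade endometrial stromal sarcoma, carries most of SUZ12, without which Polycomb repressive complex 2 (PRC2) cannot assemble. Each group, K562 labelled JAZF1-SUZ12 (the fusion libraries below) and K562 labelled mock, had 2 libraries, numbered 1 and 2. How the fusion was introduced, whether a group is a pool or a clone, and whether the replicates are separate cultures is not given in the sources used here. The p-values therefore measure the spread between these libraries, which may be technical.

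These families specify tissues in the embryo. SOX factors bind DNA through an HMG box, T-box factors through the T domain, PAX factors through a paired domain and GATA factors through zinc fingers. The sine oculis homeobox factors carry a homeodomain and work with EYA co-activators. Outside the lineages that use them, many of these genes lie in CpG-rich chromatin marked by PRC2, whereas GATA1 and GATA2, which are not among the 50, are abundant in erythroid and megakaryocytic cells.

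The libraries held between 17260936 and 24423028 counts, and fusion replicate 2 was the deepest and fusion replicate 1 the shallowest. The fusion partners followed the labels: JAZF1 had 12 and 27 counts with mock and 574 and 731 with the fusion (log2 fold change 5.05, edgeR, adjusted p = 1.07e-10), and SUZ12 rose by 1.01 on the log2 scale (edgeR, adjusted p = 1.15e-09). The source label gives uterus for all samples. All 16 erythroid markers were counted in every library, with a summed level of 13184 and 13463 CPM (counts scaled to a library total of 1000000) in mock and 15253 and 15425 CPM in fusion libraries, and 7 of the 16 were called higher (adjusted p under 0.05), against 13.3% of all genes tested. Of 12 uterine stromal markers, 8 had at least 10 counts in a library. LUM was at 0 and COL3A1 at no more than 3 counts in every library. The summed stromal level was 38.2 and 39.9 CPM in mock and 69.2 and 73.5 CPM in fusion libraries, and 2 of its 7 tested genes, COL1A1 and MME, were called higher, against the same 13.3%. The part of either marker set in the results below was not tested. In bulk libraries, fewer cells with a transcript and less transcript per cell cannot be told apart.

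Of the 50 members, 5 differed between the groups. SOX8, SOX13, TBX1 and PAX3 were higher and SOX6 was lower in fusion libraries. No sine oculis or GATA gene of the 50 was called by edgeR or DESeq2, and 0 of the 5 tested had an unadjusted p under 0.05 (edgeR). The filter on low counts, which asks for about 0.479 CPM in at least 2 libraries, was passed by 23 members. The 4 called higher and the 1 called lower compare with 13.3% and 11.4% of all 14750 genes tested, and the share called in either direction was 21.7% of the 23 members against 24.7% of all genes tested. The members were thus called about as often as the background. SOX13 and PAX3 lay below 0.479 CPM in both mock libraries and passed only through the fusion libraries. SOX8 lay above it in 1 mock library and in both fusion libraries, so it too needed the fusion libraries to pass. With a filter on the mean over all 4 libraries, of at least 10 counts, the calls again numbered 4 higher and 1 lower. That mean includes the fusion libraries, so this filter does not remove the dependence. In mock, SOX13 had 6 and 7 counts and PAX3 had 8 and 5. With DESeq2, 3 members were higher and 1 was lower, against 9.19% and 7.13% of genes (16.3% in all). The median log2 fold change between the groups (fusion over mock, log2FC below, with its standard error, SE) of the 23 members was -0.012, beside 0.0032 over all genes tested. The groups did not overlap in 9 members that were higher and 5 that were lower, against 33.8% and 27.2% of genes tested.

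**Figure D1:**
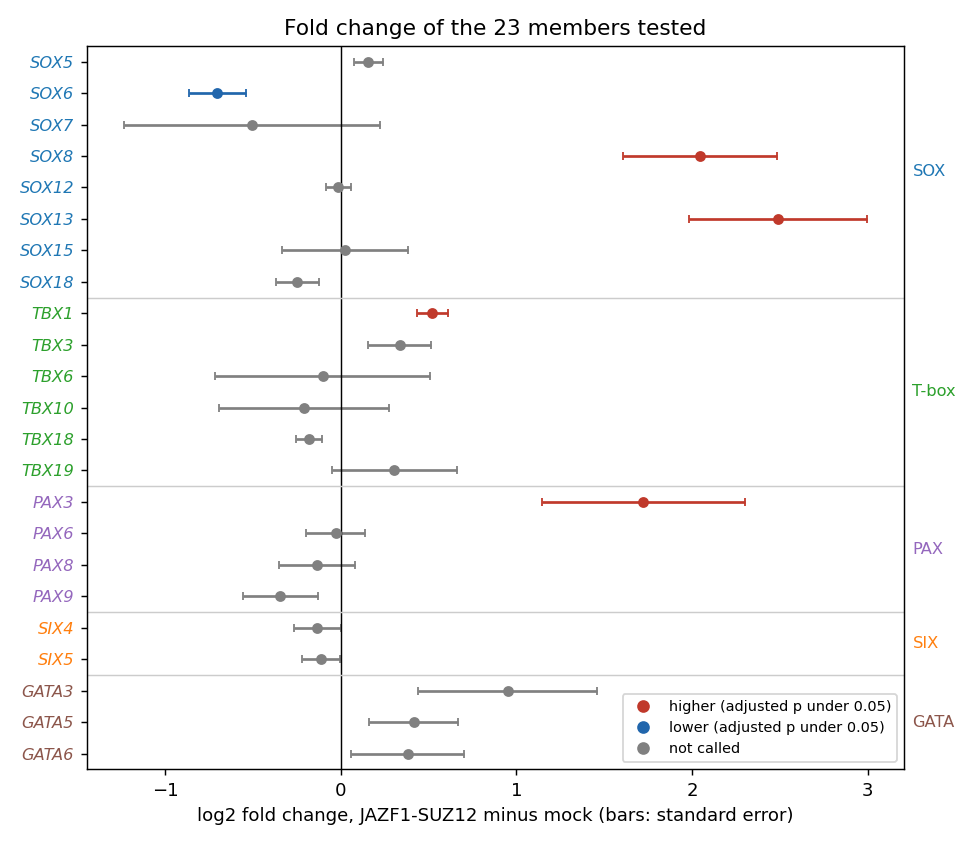
Log2FC (fusion over mock, horizontal axis) of the 23 members tested, by family, with bars for the SE of the edgeR estimate. SOX8, SOX13, TBX1 and PAX3 lie to the right of 0 and SOX6 to the left among the called genes, and the 18 grey points were not called.

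The 250 bases before the RefSeq start of TBX1, SOX13, PAX3 and SOX6 are shown because these genes moved in the same comparison and PRC2 is known to act at CpG-rich promoters. The RefSeq table (GRCh38.p14) matched 33 of the 50 members, 66.0%, which is too few for a comparison over the members, so that check is void. Of the 5 called members, SOX8 has no entry. Sequences run 5′ to 3′ on the gene's strand, and capitals mark each CG dinucleotide, which reads the same on both strands. The windows are chr22:19756453-19756702 (plus strand) for TBX1, chr1:204072865-204073114 (plus) for SOX13, chr2:222298999-222299248 (minus) for PAX3 and chr11:16738478-16738727 (minus) for SOX6. The SOX6 window is the outermost of 5 in the table and lies inside the GENCODE gene, as its RefSeq start is 1114 bases downstream of the GENCODE start.
TBX1: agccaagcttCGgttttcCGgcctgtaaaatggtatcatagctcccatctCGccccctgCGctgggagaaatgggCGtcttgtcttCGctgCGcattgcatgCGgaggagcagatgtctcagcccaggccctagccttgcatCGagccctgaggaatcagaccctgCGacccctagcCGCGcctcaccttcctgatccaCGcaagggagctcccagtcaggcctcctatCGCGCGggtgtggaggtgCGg
SOX13: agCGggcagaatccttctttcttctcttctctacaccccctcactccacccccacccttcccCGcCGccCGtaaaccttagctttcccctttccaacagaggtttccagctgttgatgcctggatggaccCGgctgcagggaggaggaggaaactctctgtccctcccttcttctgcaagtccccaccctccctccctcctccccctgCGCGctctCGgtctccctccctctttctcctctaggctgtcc
PAX3: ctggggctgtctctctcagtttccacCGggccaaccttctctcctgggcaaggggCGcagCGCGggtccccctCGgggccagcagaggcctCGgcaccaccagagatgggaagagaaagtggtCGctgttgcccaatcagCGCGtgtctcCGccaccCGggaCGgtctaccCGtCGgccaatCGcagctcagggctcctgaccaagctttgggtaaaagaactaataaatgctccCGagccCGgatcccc
SOX6: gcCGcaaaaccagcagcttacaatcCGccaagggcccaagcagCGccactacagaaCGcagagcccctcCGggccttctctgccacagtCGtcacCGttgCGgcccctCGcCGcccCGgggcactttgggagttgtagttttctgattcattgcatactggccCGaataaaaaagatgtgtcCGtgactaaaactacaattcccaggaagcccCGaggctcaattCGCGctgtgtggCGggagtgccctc
The CG dinucleotide occurs 17 times in the windows of TBX1, PAX3 and SOX6 alike, and 38.5% of 27305 RefSeq windows of that length hold at least as many. The SOX13 window holds 8, a count reached by 55.7% of windows.

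Among the SOX genes, the members called higher were expressed at low levels. SOX8 (ENSG00000005513; GRCh38 chromosome 16, 981808 to 986979, plus strand), a SOXE factor of neural crest, glia and testis, stood at 0.342 and 0.892 CPM in mock and at 2.49 and 2.74 CPM in the fusion libraries. These are 7 and 19 counts against 43 and 67, and the groups do not overlap. Its log2FC was 2.05 with SE 0.44 (edgeR, adjusted p = 0.00287). The mock libraries differ from each other, and the size of the change rests on them: the log2FC was 1.53 when mock replicate 1 was left out and 2.90 when mock replicate 2 was. LMF1, which lies 490 bases from SOX8 on the other strand, had 42 and 40 counts in mock and 48 and 82 in fusion libraries. It averaged 1.97 CPM in mock and 3.07 CPM in fusion libraries and was not called (log2FC 0.63, SE 0.30, edgeR, adjusted p = 0.139).

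SOX13 (ENSG00000143842; chromosome 1, 204073115 to 204127743, plus strand), a SOXD factor known from gamma-delta T cells and cartilage, stood at 0.293 and 0.329 CPM in mock and at 1.62 and 1.97 CPM in fusion libraries. With 6 and 7 counts in mock against 28 and 48, it was low in each mock library and higher in each fusion library. The log2FC of 2.49 had SE 0.51 (edgeR, adjusted p = 0.00199).

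SOX6 (ENSG00000110693; chromosome 11, 15966449 to 16739591, minus strand) is also a SOXD factor, which in definitive red cell precursors represses embryonic globin together with BCL11A. It stood at 9.54 and 9.20 CPM in mock and at 5.56 and 6.10 CPM in fusion libraries. Both fusion libraries lay below both mock libraries, and the log2FC was -0.70 with SE 0.16 (edgeR, adjusted p = 0.00482). In the same libraries the embryonic globin genes HBE1 and HBZ were higher, with log2FC values of 0.24 and 0.86 (edgeR, adjusted p = 0.000319 and 2.47e-09). The rise was not confined to embryonic globins: the fetal gene HBG1 was also called higher (log2FC 0.21, edgeR, adjusted p = 0.00125). HBG2, HBA1 and HBA2 were not called, and the erythroid markers ALAS2, SLC4A1, TFRC and NFE2 were called higher. Whether any of these changes is related to that of SOX6 was not tested. The third SOXD gene, SOX5, was at 27.4 and 24.9 CPM in mock and at 28.6 and 30.5 CPM in fusion libraries. Its groups do not overlap, but it was not called (log2FC 0.16, edgeR, adjusted p = 0.192). The 3 SOXD genes thus gave 1 call in each direction and 1 gene without a call.

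**Figure D2:**
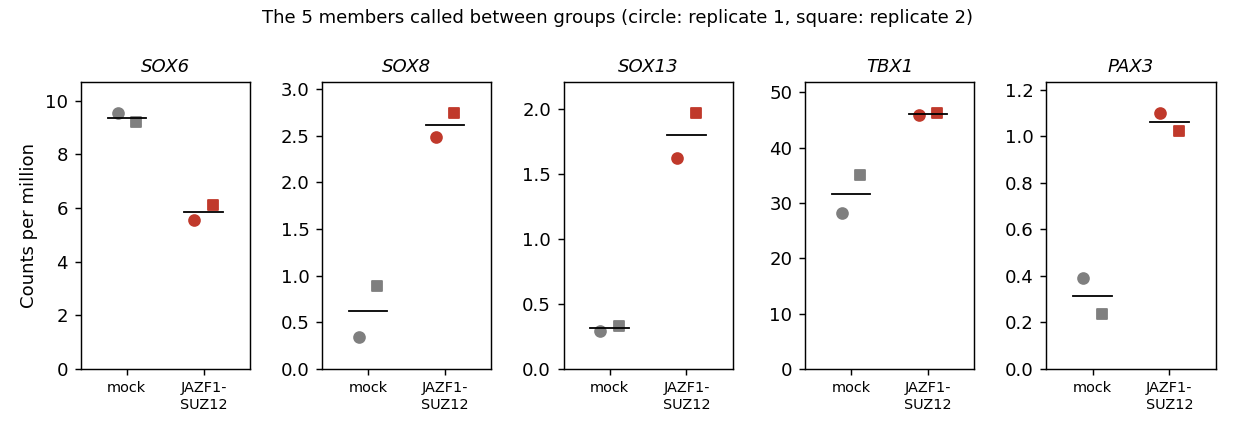
CPM (vertical axes start at 0) of the 5 called members in each library, circles for replicate 1, squares for replicate 2 and bars for the group mean. In each panel the fusion libraries lie on the same side of both mock libraries, and the mock libraries of SOX8, at 0.342 and 0.892, are far apart.

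The SOXC and SOXF genes gave no call. SOX12, a SOXC factor, was at 51.5 and 57.8 CPM in mock and at 54.2 and 55.7 CPM in fusion libraries. The fusion values lie between the mock values, and the log2FC was -0.01 with SE 0.07 (edgeR, adjusted p = 0.920), although its sign depends on the scaling, at 0.01 with total counts only. The other SOXC genes, SOX4 and SOX11, had at most 11 and 7 counts in a library. SOX18, an endothelial SOXF factor, was at 13.9 and 15.9 CPM in mock and at 12.9 and 12.7 CPM in fusion libraries. It was lower in each fusion library and was not called (log2FC -0.25, edgeR, adjusted p = 0.160). SOX7, of the same group, had 7 and 16 counts in mock and 2 and 15 in fusion libraries. The groups overlap, and its log2FC was -0.51 with SE 0.73 (edgeR, adjusted p = 0.665). SOX15 had 30 and 48 counts in mock and 38 and 41 in fusion libraries, which lie between the mock values (edgeR, adjusted p = 0.971).

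Of the T-box genes, 6 passed the filter and TBX1 was called. TBX1 (ENSG00000184058; chromosome 22, 19756703 to 19783593, plus strand), which patterns the pharyngeal arches and the cardiac outflow tract, was at 28.2 and 35.0 CPM in mock and at 45.8 and 46.3 CPM in fusion libraries. The fusion libraries lie close together and above both mock libraries. The mean rose from 31.6 ± 4.81 to 46.0 ± 0.312 CPM (SD, n = 2 each), and the log2FC was 0.52 with SE 0.09 (edgeR, adjusted p = 0.000456). TBX1 overlaps GNB1L on the other strand, and whether strand was used in counting is not given in the sources used here. GNB1L had 614 and 680 counts in mock and 583 and 724 in fusion libraries and was not called (edgeR, adjusted p = 0.976). TBX1 took 39.7% and 44.5% of the summed T-box counts with mock, against 52.2% and 53.0% with the fusion.

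TBX18, a factor of the epicardium and the sinus node, was at 33.8 and 34.3 CPM in mock and at 30.9 and 30.2 CPM in fusion libraries. Each fusion library was below each mock library, with a log2FC of -0.18 and SE 0.08 that did not pass (edgeR, adjusted p = 0.0960). TBX3, which acts in limb, mammary gland and the conduction system, was at 5.62 and 5.26 CPM in mock and at 7.18 and 6.80 CPM in fusion libraries. Its groups do not overlap, and it was not called (log2FC 0.34, SE 0.18, edgeR, adjusted p = 0.190). Neither gene was called, and the direction of TBX18 is not shared by the authors' deposited table, which gives it a log2FC of 0.07.

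TBX19, a regulator of pituitary corticotrophs, had 28 and 36 counts in mock and 30 and 51 in fusion libraries. TBX10 had 18 and 21 counts against 15 and 19. In CPM, the groups of TBX19 (higher with the fusion) and TBX10 (lower) do not overlap. TBX6, which acts in presomitic mesoderm, had 9 and 13 counts against 7 and 14. None of these 3 was called, and their SE values lay between 0.36 and 0.61 on the log2 scale. Changes of that size, and somewhat larger ones, would not be called at this depth. The other 8 T-box genes, among them the T-cell factors TBX21 and EOMES and the cortical factor TBR1, had at most 8 counts in any library. TBR1 had 0 and 2 counts in mock and 8 and 4 in fusion libraries, and TBX15 had 8 and 8 against 0 and 4.

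Among the PAX genes 4 passed the filter, and PAX3 (ENSG00000135903; chromosome 2, 222199888 to 222298996, minus strand) was called. PAX3, a factor of neural crest, melanocytes and muscle precursors, was at 0.391 and 0.235 CPM in mock and at 1.10 and 1.02 CPM in fusion libraries, from 8 and 5 counts against 19 and 25. The groups do not overlap, and the log2FC was 1.72 with SE 0.58 (edgeR, adjusted p = 0.0394). This call was the least firm of the 5. It was lost with DESeq2 (adjusted p = 0.147) and when any library was left out, where the adjusted p lay between 0.0526 and 0.155, while the log2FC ranged from 1.41 without the second mock library to 2.13 without the first.

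The PAX genes with the most counts did not pass the test. PAX6, the regulator of eye, brain and pancreatic islet development, was at 8.12 and 8.08 CPM in mock and at 9.15 and 7.08 CPM in fusion libraries, which lie on either side of mock. PAX8, of thyroid and kidney, was at 5.67 and 4.32 CPM in mock and at 4.40 and 4.79 CPM in fusion libraries. PAX9, of pharyngeal pouches and teeth, was at 6.90 and 4.93 CPM in mock and at 4.46 and 4.95 CPM in fusion libraries. All 3 overlap between groups, with log2FC values of -0.03, -0.14 and -0.34 (edgeR, adjusted p = 0.925, 0.695 and 0.265). The remaining PAX1, PAX2, PAX4, PAX5 and PAX7 had at most 5 counts in a library. PAX5, the B-cell identity factor, had 0 counts in both mock libraries and 3 and 4 in the fusion libraries.

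Neither of the sine oculis genes that passed the filter passed the test. SIX5, which lies next to the DMPK gene, was at 19.0 and 23.5 CPM in mock and at 20.0 and 19.9 CPM in fusion libraries, between the mock values. SIX4, known from muscle precursors, was at 11.7 CPM in both mock libraries and at 10.3 and 11.4 CPM in fusion libraries. The log2FC values were -0.11 and -0.13, with SE values of 0.11 and 0.13 (edgeR, adjusted p = 0.502 and 0.515). SIX2, of kidney progenitors, and SIX6, of the retina, were at 0 in every library, and SIX3 had 4 counts in mock replicate 1 alone.

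The GATA genes among the 50 are those of T cells (GATA3) and of heart and endoderm (GATA4, GATA5 and GATA6). GATA3 was at 0.538 and 0.657 CPM in mock and at 1.45 and 0.942 CPM in fusion libraries, from 11 and 14 counts against 25 and 23. GATA5 was at 2.64 and 2.77 CPM in mock and at 3.42 and 3.89 CPM in fusion libraries. In both genes the groups do not overlap, and neither was called (edgeR, adjusted p = 0.193 and 0.261). GATA6 was at 2.40 and 1.88 CPM in mock and at 3.42 and 2.29 CPM in fusion libraries, which overlap (edgeR, adjusted p = 0.429). The log2FC values of the 3 were 0.95, 0.42 and 0.38 with SE values of 0.51, 0.25 and 0.32. GATA4 had 1 and 6 counts in mock and 7 and 13 in fusion libraries and did not pass the filter. Summed over the 4 genes, the level was 5.62 and 5.59 CPM in mock and 8.69 and 7.66 CPM in fusion libraries. The T-box sum was also higher, at 71.0 and 78.7 CPM in mock and 87.7 and 87.3 CPM in fusion libraries. The sums of the SOX, PAX and sine oculis genes overlapped between the groups. None of these sums was tested.

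**Figure D3:**
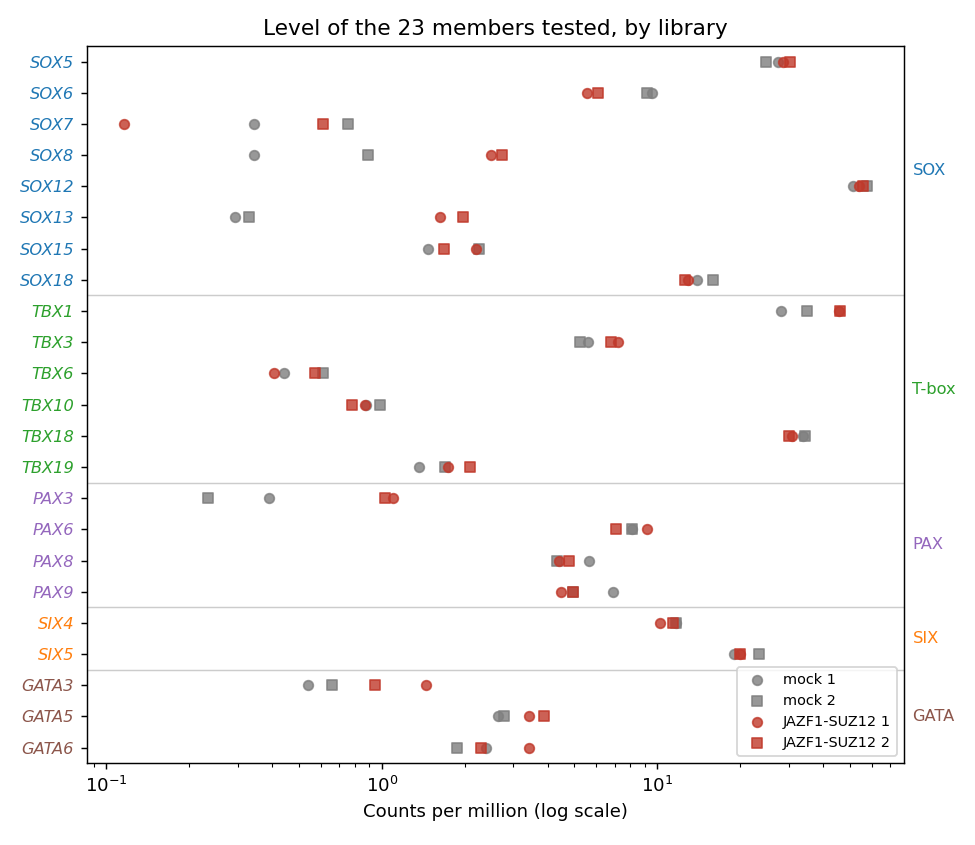
CPM (log axis) of the 23 members tested in each library, mock in grey and JAZF1-SUZ12 in red. The libraries of SOX8, SOX13 and PAX3 separate by group at levels below 3 CPM, as do those of GATA3, TBX19 and TBX10, which were not called. TBX1, SOX12, TBX18 and SOX5 lie above 20 CPM in all 4 libraries, with log2FC values of 0.52, -0.01, -0.18 and 0.16. Of these, TBX1, TBX18 and SOX5 also separate by group, and only TBX1 was called.

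To compare levels between genes, CPM was divided by the length of the gene's longest GENCODE transcript in kilobases. TBX1 was at 18.6 CPM per kilobase averaged over the 4 libraries (range 13.5 to 22.2), followed by SOX12 at 11.8 (11.1 to 12.5). SOX18 at 7.43 and SIX5 at 6.22 overlap in range, as their libraries span 6.79 to 8.54 and 5.73 to 7.08. TBX18 at 5.17, SOX5 at 3.99 and SIX4 at 1.79 came next, without overlap between neighbours. On this scale GATA1, the main GATA factor of red cell precursors, was at 177 CPM per kilobase, well above every member. SOX8 at 0.389, SOX13 at 0.293 and PAX3 at 0.217 were among the 6 lowest of the 23.

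The other 27 members had few or no counts. SOX9, SOX17, SOX30, EOMES, SIX2 and SIX6 had 0 counts in all 4 libraries, where 3 counts, the limit that a count of 0 allows, correspond to between 0.123 and 0.174 CPM. In all, 14 members had no more than 3 counts in every library. SOX2 and SOX1, factors of neural progenitors, each had 1 count in all, in fusion replicate 1. Among the 27, SOX4, SOX21 and GATA4 reached 10 counts in any library, with 11, 14 and 13 counts, each in fusion replicate 2, the deepest library. SOX21 had 4 and 3 counts in mock and 5 and 14 in fusion libraries. When the filter was dropped, 21 of the 27 had a count to test, and 0 were called by edgeR, with 0 at an unadjusted p under 0.05 and a lowest adjusted p of 0.259, for PAX5. In that fit 17.8% of all 22778 genes were called, 9.17% higher and 8.68% lower. That share includes genes with many counts, which are easier to call, so it is not a like comparison for these 21. Members with any count numbered 32 and 33 in mock and 35 and 38 in fusion libraries. Over all genes of the table these numbers were 19016 and 19129 in mock and 19365 and 20445 in fusion libraries.

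**Figure D4:**
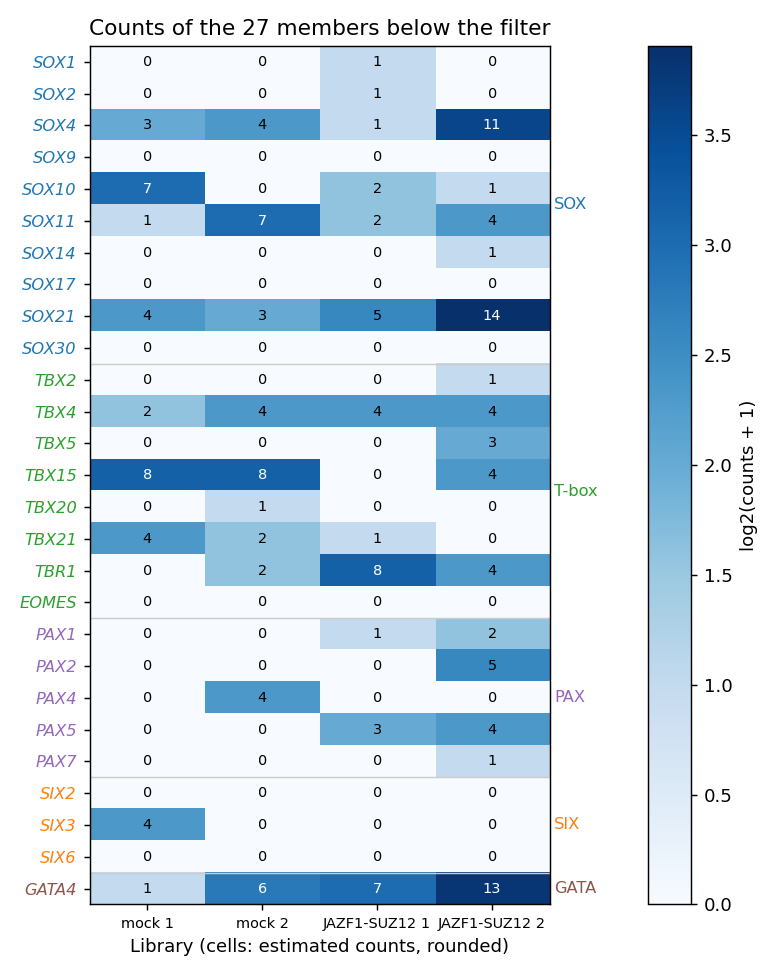
Rounded estimated counts of the 27 members below the filter (numbers in the cells, colour on a log2(counts + 1) scale), libraries in columns and families in rows. No cell exceeds 14, and SOX9, SOX17, SOX30, EOMES, SIX2 and SIX6 are 0 throughout.

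Several members lie beside a relative on the same chromosome. TBX2 and TBX4 are 42.9 kb apart on chromosome 17, and both had at most 4 counts in a library. SIX2 and SIX3, 59.1 kb apart on chromosome 2, also had at most 4. In contrast, TBX3 was at 5 CPM or more in every library, while TBX5, 261.8 kb away on chromosome 12, had 3 counts in fusion replicate 2 and 0 elsewhere. SIX4 and SIX6 are 196.7 kb apart on chromosome 14, and SIX6 was at 0 in every library.

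In the authors' deposited table, 25 members had an adjusted p-value and TBX1 alone was called, with a log2FC of 0.47 and an adjusted p of 0.0289. Across the genes with an adjusted p there, 8.5% were called, 4.93% higher and 3.57% lower. SOX8 followed with an adjusted p of 0.0556 in the authors' deposited table and a log2FC of 2.03. For SOX6, SOX13 and PAX3 the authors' deposited table gave log2FC values of -0.68, 1.79 and 2.01 and adjusted p-values of 0.188, 0.269 and 0.256. The 5 genes had the same direction in both comparisons. As both compare the same groups of this series, the shared direction is not independent. PAX6 and TBX18, not called in either, had log2FC values of 0.20 and 0.07 in the authors' deposited table and -0.03 and -0.18 here.

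Other members of the families were not called either. Of 8 such genes, 4 were tested: GATA1, GATA2, MGA, a T-box protein of the MAX network, and TRPS1, a GATA-type repressor. GATA1 averaged 259 ± 5.35 CPM in mock and 271 ± 16.4 CPM in fusion libraries (SD, n = 2 each), and GATA2 averaged 178 ± 3.13 and 168 ± 1.65 CPM. Their adjusted p-values were 0.562 and 0.125 (edgeR). By edgeR 1 of the 4, GATA2, had an unadjusted p under 0.05, and DESeq2 called 0. The remaining 4, among them SOX3, TBX22 and TBXT, were at 0 in every library. Antisense RNAs of the members were not analysed here.

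Proteins that act with these factors were examined as a list of 22, of which 14 were tested and 2 called. The count compares with 24.7% of all genes tested. TLE2, a Groucho-type corepressor, was at 27.3 and 29.9 CPM in mock and at 43.0 and 44.7 CPM in fusion libraries (log2FC 0.60, edgeR, adjusted p = 3.04e-05). LMO2, a bridging protein of erythroid GATA complexes, was at 81.9 and 80.5 CPM in mock and at 69.8 and 64.0 CPM in fusion libraries (log2FC -0.31, edgeR, adjusted p = 0.00219). The median log2FC of the 14 was -0.05. EYA1, EYA2 and EYA4, partners of the sine oculis factors, had at most 7 counts in a library. EYA3, of the same family, was at 61.6 and 61.2 CPM in mock and at 58.1 and 61.0 CPM in fusion libraries. It was not called (log2FC -0.06, edgeR, adjusted p = 0.488).

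Among 35 textbook targets of these factors, 13 were tested and 2 called, both higher, where 13.3% of all genes tested were called higher. ERBB3, a neuregulin receptor regulated by SOX10 in neural crest, was at 17.6 and 16.2 CPM in mock and rose to 24.2 and 27.3 CPM in the fusion libraries, a log2FC of 0.59 (edgeR, adjusted p = 0.000419). SLC5A5, the thyroid iodide transporter regulated by PAX8, had 13 and 22 counts in mock and 32 and 59 in fusion libraries (log2FC 1.33, edgeR, adjusted p = 0.0265), a call that was lost with DESeq2 (adjusted p = 0.0891). Of the factors named with them, SOX10 had at most 7 counts in a library, and PAX8 was not called. The median log2FC of the 13 targets was 0.27.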

How the data were processed

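Per the labels' protocols, mRNA was selected by its poly(A) tail and sequenced from a directional kit. The submitters' processing notes name the build hg38 and the tools fastp 0.20.1, FastQC 0.11.7, MultiQC 1.5, kallisto 0.46.2 and DESeq2 1.30.1. The annotation behind the gene rows is not given in the sources used here.

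The authors deposited estimated counts per gene, which were rounded to whole numbers here because the test had been planned for whole counts. Genes were filtered with filterByExpr, scaled with TMM and compared with edgeR's quasi-likelihood test (edgeR 4.0.16, R 4.3.3), two-sided, without covariates. The resulting p-values were corrected by Benjamini-Hochberg over all 14750 genes tested. A gene with an adjusted p under 0.05 is called. Standard errors were taken from the F statistic, as |log2FC|/√F. CPM scales counts to a library total of 1000000. The test was tested on simulated data. The alternatives were DESeq2 1.42.0, 2 other scalings, 2 other filters, the replicate number as a block, a threshold of 0.01 and leaving out each library.

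The authors also deposited their own comparison. Per the file headers, it holds a mean signal (normalized counts), a log2 fold change with its standard error, a test score, and a p-value with its adjusted p-value.

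Positions and transcript lengths are from GENCODE 29 on GRCh38, the build of the notes, and promoter sequences from RefSeq on GRCh38.p14. The members and the lists were chosen with earlier results of these data known. Every member that passed the filter is named, as is every other with 10 counts or more in a library. From the other lists, the fusion partners, called members of the same families and up to 5 called partners and targets are named. 1 gene was left out of these lists and is not reported here.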

Additional observations from a re-analysis of the deposited data

How the results depend on the processing

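SOX6, SOX8, SOX13 and TBX1 kept their direction and their call in all 10 alternative fits, and at a threshold of 0.01. With DESeq2 the genes called numbered 2407 instead of 3643, the members 3 higher and 1 lower, and the PAX genes 0 instead of 1. At an adjusted p under 0.01 the numbers were 2045 genes and 0 PAX genes, which follows from the threshold. The median log2FC of the members became 0.31 with no filter, which adds members with few counts. It was 0.0098 with total counts only, and so was that of SOX12, whose sign differs from that of TMM. When 1 library was left out, the lone library of a group was assumed to vary like the other group. Then 2455 to 3734 genes, 3 members higher, 1 lower and 0 PAX genes in every fit were called, and the median of the members ranged from -0.023 to 0.16. The sign of 7 members that were not called depended on the library left out: the log2FC ranged from -2.19 to 0.18 for SOX7, from -0.090 to 0.083 for SOX12, from -0.25 to 0.38 for SOX15, from -0.38 to 0.16 for TBX6, from -0.23 to 0.17 for PAX6, from -0.31 to 0.074 for PAX8 and from -0.25 to 0.057 for SIX5. The cause of these shifts was not tested.

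A replicate block in the model gave 4061 called genes and again 4 members higher and 1 lower. It changed no call of a member. Same-numbered libraries deviated from their group means with a Pearson correlation of -0.00072 across 14750 genes, which are not independent. As each group gives a single replicate difference, this value cannot decide whether same-numbered libraries share a culture or a batch. Counts of under 20 in the mock libraries limit the precision for SOX8, SOX13 and PAX3.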

Other observations

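Genes within 1 kb of a member were looked at because their reads or promoters may be shared, a list made after the counts were seen. GENCODE 29 places 58 genes there, of which 19 are in the count table and 12 were tested. Of these, 2 were called higher and 1 lower, against 24.7% of all genes tested. YPEL3, 427 bases from TBX6 on the same strand, averaged 11.2 ± 0.592 CPM in mock and 21.9 ± 0.284 CPM in fusion libraries (SD, n = 2 each; log2FC 0.95, edgeR, adjusted p = 1.27e-05), while TBX6 was not called. BHMG1, 251 bases from SIX5 on the other strand, had 43 and 45 counts in mock and 79 and 114 in fusion libraries (log2FC 1.11, edgeR, adjusted p = 0.00420), while SIX5 was not called. POLR2F, a subunit shared by the RNA polymerases that overlaps SOX10 on the other strand, had a log2FC of -0.19 (edgeR, adjusted p = 0.0381), with SOX10 at 7 counts or fewer in each library.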
